A study of Mus musculus with 20 samples.

Results

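The members are 4 mouse genes of the sodium channel and FGF homologous factor families, *Fgf12*, *Fgf13*, *Scn4b* and *Scn7a*. They were taken by name from the platform annotation, with every probe that it pairs with them, which gave 7 probes: 2 for *Fgf12*, 3 for *Fgf13* and 1 each for *Scn4b* and *Scn7a*. They are 4 of 16593 named genes on the array. RefSeq places *Scn7a* on chromosome 2, *Scn4b* on chromosome 9, *Fgf12* on chromosome 16 and *Fgf13* on chromosome X.

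Voltage-gated sodium channels open when a heart muscle cell is depolarised and carry the inward current of the upstroke, and each consists of a large pore-forming subunit with smaller beta subunits beside it. *Scn4b* encodes the beta-4 subunit, a single-pass membrane protein that alters how the pore subunit gates. *Fgf12* and *Fgf13* encode FGF homologous factors, which resemble fibroblast growth factors but stay inside the cell, bind the cytoplasmic tail of the pore subunit and tune its inactivation, and *Fgf13* is known as the main one of mouse ventricular muscle. *Scn7a* encodes Nax, an atypical member of the pore family that is known from the nervous system as a sensor of extracellular sodium.

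Hearts of male C57/BL6 mice, 5 to 10 weeks old, were divided into 5 regions, and the RNA of each region was hybridised to 4 bead arrays (Illumina MouseRef-8 v2). The regions were the left atrium (LA), cut next to the pulmonary vein, the right atrium (RA), a mass of the left ventricle (LV), the outer wall of the right ventricle (RV) and the sinoatrial node (SA), the pacemaker of the heart, which was dissected separately and pooled from several mice. LV masses were divided into pieces before extraction and the labels do not say which arrays came from separate animals, so p-values measure the spread between these arrays, which may be partly technical. No mouse was treated or genetically altered.

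Each deposited value is a z-score within an array: 0 is the mean of all 25697 probes on that array and 1 is their standard deviation. Such a score has no true zero, so every difference is in z-score units and folds are left out. The median probe of an array lay between -0.5 and -0.4.

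Arrays of the left ventricle stood apart from the rest. LV replicate 4 had Spearman correlations of -0.06 to 0.011 with the other arrays and was left out of the fit, which therefore holds 19 arrays. LV replicate 3 correlated at 0.847 to 0.884 with the others, against 0.919 to 0.96 among the remaining 18 arrays, and in it 339 probes read lower than the lowest value of any other array. The study's own analysis used only some of the LV arrays without naming them. LV replicate 3 stayed in the fit here, and each result that it decides is given with and without it. The 4 measured genes of the node list stood as the SA label implies, 4 higher than in LA, 3 higher than in RA and none lower, while all 5 atrial muscle genes were higher in atria and all 5 ventricular muscle genes higher in ventricles at the threshold used throughout, an adjusted p of 0.05 in limma with Benjamini-Hochberg adjustment over all probes. Of the brightest probes of all genes, here called lead probes, 9.68% passed between SA and RA, 10.6% between SA and LA and 41.8% between atria and ventricles.

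Both FGF homologous factors have several annotated starts, with 4 promoter windows each in RefSeq (GRCm38.p6, 250 bases before to 50 bases after a start). The first window of each is shown because it is the one that holds a match to the consensus of MEF2, a muscle transcription factor, printed in capitals. The runs are 5′ to 3′ on the strand of the gene, which is the minus strand in both, at chr16:28753194-28753493 for *Fgf12* and chrX:59585523-59585822 for *Fgf13*.
Fgf12 promoter window 1: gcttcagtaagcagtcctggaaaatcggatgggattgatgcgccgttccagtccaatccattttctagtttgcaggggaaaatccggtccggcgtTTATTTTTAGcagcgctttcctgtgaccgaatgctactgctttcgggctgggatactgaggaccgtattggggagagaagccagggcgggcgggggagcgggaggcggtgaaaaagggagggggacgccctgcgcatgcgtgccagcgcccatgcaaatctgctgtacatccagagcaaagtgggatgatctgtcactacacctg
Fgf13 promoter window 1: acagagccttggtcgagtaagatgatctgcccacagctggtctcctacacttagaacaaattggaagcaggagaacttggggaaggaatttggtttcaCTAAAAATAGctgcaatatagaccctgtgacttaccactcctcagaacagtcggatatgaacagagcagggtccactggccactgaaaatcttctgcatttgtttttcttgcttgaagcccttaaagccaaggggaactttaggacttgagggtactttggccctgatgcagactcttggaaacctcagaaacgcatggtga
The match begins at base 96 of the *Fgf12* window and at base 99 of the *Fgf13* window. Of 32851 RefSeq promoter windows of the mouse, 3.19% hold such a match on either strand. Also searched on both strands were AGATAA, which is known as the site of GATA factors and is held by 11.2% of windows and by the *Scn7a* window, TATAAA, which is known as the TATA box and is held by 13.6% and by the third *Fgf13* window, and AGGTGTGA, known as a site of T-box factors and held by 1.28% and by none of the 10 member windows. The single *Scn4b* window held none of the 4 motifs. A match describes letters only, the motifs were chosen with the members in view, and neither the array nor the table ties a probe to one of the starts.

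*Fgf12* was high in the atria and the node and low in the ventricles. Its probe 1, the brighter one, read 2.19, 2.22, 1.97 and 2.05 in the 4 LA arrays and 1.97, 1.92, 1.77 and 1.85 in the 4 RA arrays. In the SA arrays it read 1.8, 1.63, 1.71 and 1.82. In the ventricles it read -0.61, -0.69 and -0.7 in the 3 LV arrays and -0.7, -0.61, -0.71 and -0.65 in the 4 RV arrays. All 12 arrays of the atria and the node thus lay above the array mean and all 7 ventricular arrays below it, with a gap of more than 2 units and no array between. LV replicate 4, which was not fitted, also read below 0, at -0.42.

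The order of region means for *Fgf12* probe 1 was LA at 2.11 ± 0.118 (SD, n = 4), RA at 1.88 ± 0.087 (SD, n = 4), SA at 1.74 ± 0.088 (SD, n = 4), and LV and RV together at -0.667, with SDs of 0.049 (n = 3) and 0.046 (n = 4). Atria exceeded ventricles by 2.66 ± 0.042 (SE, limma adjusted p = 2.62e-18) and the node exceeded ventricles by 2.41 ± 0.051 (SE, limma adjusted p = 3.73e-16). The step between the ventricles and the other regions was therefore many times the spread between arrays of a region, while the steps within the upper group were small. SA was lower than LA by 0.368 units, a difference of -0.368 ± 0.057 (SE, limma adjusted p = 0.000248) with no overlap of arrays, a call lost when arrays were rescaled by their median and median absolute deviation (limma adjusted p = 0.313). SA and RA did not differ at the threshold, at -0.137 ± 0.057 (SE, limma adjusted p = 0.171, 95% interval -0.257 to -0.018).

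LV and RV differed by 0.001 in *Fgf12* probe 1, with a 95% interval of -0.129 to 0.13. LA exceeded RA by 0.23 ± 0.057 (SE, limma adjusted p = 0.0435), but the arrays of the atria overlapped. That call rests on the arrays included: it was lost without any one of LA replicates 1, 2 and 4, LV replicate 2, RA replicates 2, 3 and 4, each RV replicate and SA replicate 3, with adjusted p values of 0.0508 to 0.156.

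The other *Fgf12* probe, whose annotation lists a different transcript of the gene, showed the same split at a lower score. It read 1.72 to 1.92 in LA, 1.48 to 1.76 in RA, 1.11 to 1.25 in SA, -0.88 to -0.53 in the 3 LV arrays and -0.63 to -0.5 in RV. Atria exceeded ventricles by 2.33 ± 0.053 (SE, limma adjusted p = 3.49e-16). For this probe the node was also below RA, at -0.423 ± 0.072 (SE, limma adjusted p = 0.000562), and below LA, at -0.657 ± 0.072 (SE, limma adjusted p = 4.52e-06), in both cases without overlap. The call against RA was lost when arrays were rescaled by their median and median absolute deviation (limma adjusted p = 0.111). LA minus RA was 0.235 (limma adjusted p = 0.128) and passed without LV replicate 3 (limma adjusted p = 0.032). Over the 19 arrays the 2 probes had a Pearson correlation of 0.989, a description given without a test because arrays of a region share their tissue. Whether the gap between node and RA differs between the 2 probes was not tested.

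**Figure D1:**
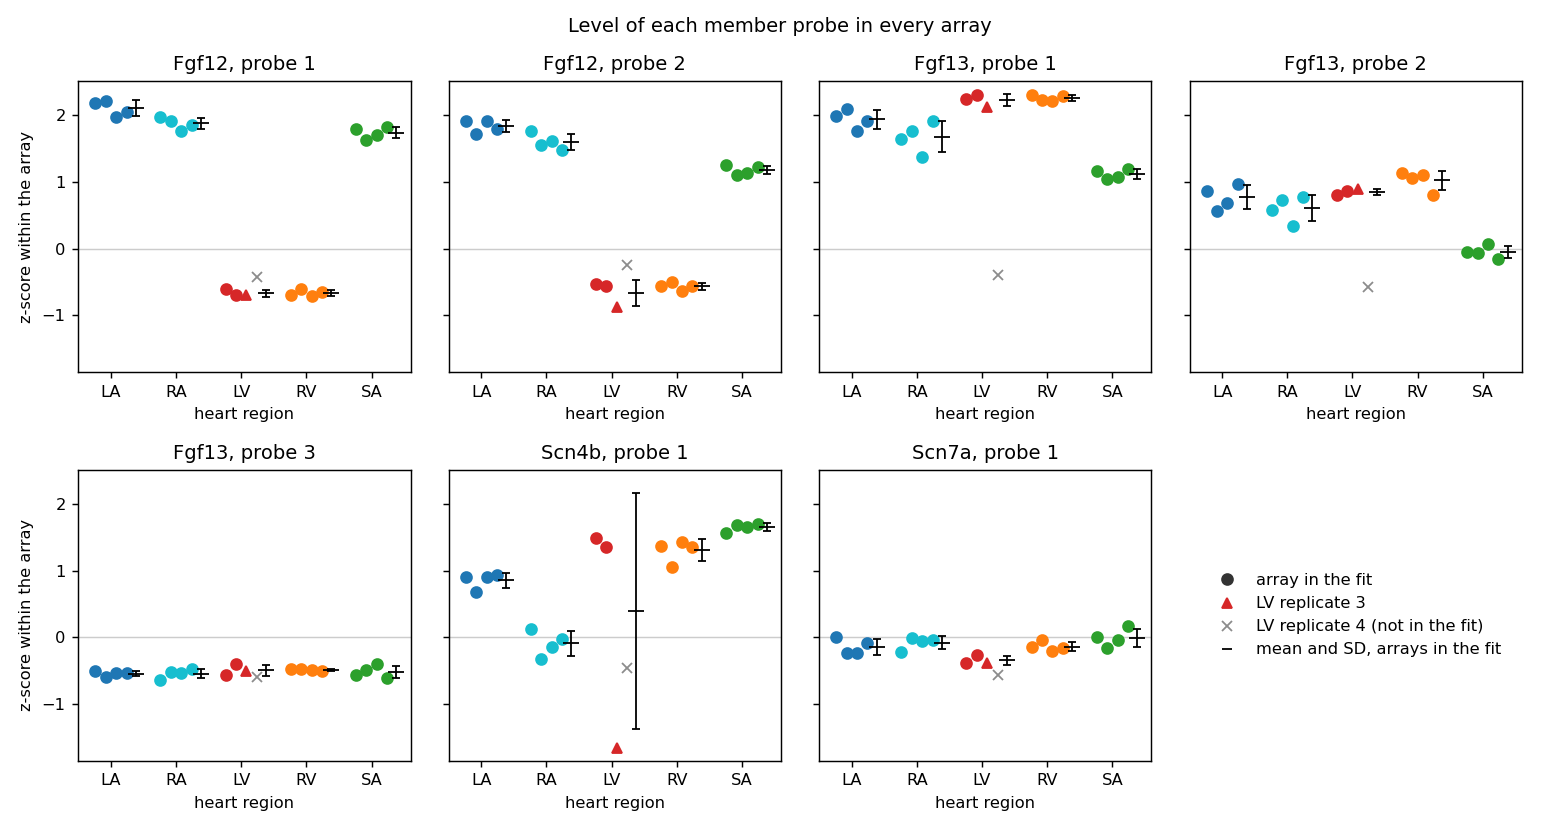
Z-score within the array (vertical axis, no unit) of each of the 7 member probes in every array, by heart region (horizontal axis). Points are arrays, the triangle is LV replicate 3, the cross is LV replicate 4, which was not fitted, and bars are the mean and SD over the arrays fitted. *Fgf12* splits at 0 between ventricles and the other regions, and among the fitted arrays *Fgf13* probe 1 is lowest in SA and *Scn4b* is lowest in RA apart from LV replicate 3, which reads -1.65.

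*Fgf13*, the other FGF homologous factor measured well above the array mean, ran the opposite way. Its probe 1 read 2.31, 2.23, 2.21 and 2.29 in RV and 2.25, 2.3 and 2.13 in the 3 LV arrays. In LA it read 1.99, 2.09, 1.76 and 1.91, and in RA 1.64, 1.77, 1.38 and 1.92. In SA it read 1.17, 1.05, 1.07 and 1.2. Every ventricular array was above every atrial array, and every atrial array above every SA array, yet all 19 lay above 0. LV replicate 4, outside the fit, read -0.4, and with it put back no contrast of this probe passed (limma adjusted p = 0.24 between SA and ventricles, differences of -0.792 there and -0.107 between atria and ventricles).

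The region means of *Fgf13* probe 1 ran from RV at 2.26 ± 0.048 (SD, n = 4) and LV at 2.23 ± 0.087 (SD, n = 3) through LA at 1.94 ± 0.139 (SD, n = 4) and RA at 1.68 ± 0.229 (SD, n = 4) to SA at 1.12 ± 0.074 (SD, n = 4). The node was lower than RA, at -0.555 ± 0.087 (SE, limma adjusted p = 0.000251), lower than LA, at -0.815 ± 0.087 (SE, limma adjusted p = 3.52e-06), and lower than the ventricles, at -1.12 ± 0.077 (SE, limma adjusted p = 2.24e-09). Atria were lower than ventricles, at -0.436 ± 0.064 (SE, limma adjusted p = 2.32e-05). The call against RA was lost when arrays were rescaled by their median and median absolute deviation (limma adjusted p = 0.0598). Neighbours within a chamber type did not differ at the threshold: LV minus RV was -0.033 with a 95% interval of -0.23 to 0.164, and LA minus RA was 0.26 with an interval of 0.078 to 0.442 (limma adjusted p = 0.186). LA minus RA passed when RA replicate 4 was left out, at 0.341 (limma adjusted p = 0.0457).

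The second *Fgf13* probe gave the same low point at a lower score. It read -0.05, -0.07, 0.07 and -0.15 in SA, 0.57 to 0.97 in LA, 0.34 to 0.77 in RA, 0.8 to 0.89 in the 3 LV arrays and 0.81 to 1.13 in RV. SA was below RA by a difference of -0.655 ± 0.095 (SE, limma adjusted p = 0.000108) and below the ventricles by -0.988 ± 0.084 (SE, limma adjusted p = 3.91e-08). The atria and ventricles overlapped in this probe, with a difference of -0.249 ± 0.07 (SE, limma adjusted p = 0.00886). With LV replicate 4 put back, where this probe read -0.58, its calls between SA and RA (limma adjusted p = 0.391), SA and LA (limma adjusted p = 0.141) and atria and ventricles (limma adjusted p = 0.764) were lost. Its Pearson correlation with probe 1 was 0.922 over 19 arrays.

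The third *Fgf13* probe was below 0 in every array, from -0.64 to -0.4, although its annotation lists the same transcript as the other probes. None of its contrasts passed, and its differences lay between -0.055 and 0.03. Its Pearson correlation with probe 1 was 0.155. The regional pattern of *Fgf13* therefore rests on 2 of its 3 probes.

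Between atria and ventricles the pair of factors ran in opposite directions, *Fgf12* probe 1 higher in atria and *Fgf13* probe 1 lower, with a Pearson correlation of -0.668 between them over the 19 arrays. In the node neither had a mean above that of an atrium. Marker genes of the tissue pieces were read beside these values. Of all lead probes 9.68% passed between SA and RA, 10.6% between SA and LA and 32.7% between SA and ventricles. Of 4 measured heart muscle genes, none passed between SA and RA or between SA and LA, and 2 were lower in SA than in the ventricles. Of the adipocyte list all 5 genes, and of the smooth muscle list 4 of 5, exceeded both atria in SA, with adipocyte list means of 0.862 to 1.3 in SA arrays and -0.69 to -0.024 elsewhere. Their part in the lower *Fgf13* values of the node was not tested, and in such tissue pieces fewer cells of a type and less RNA per cell cannot be told apart.

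*Scn4b*, the beta-4 subunit, was highest in the node and, apart from 1 LV array among those fitted, lowest in the right atrium. It read 1.57, 1.69, 1.66 and 1.7 in SA and 0.13, -0.32, -0.14 and -0.03 in RA. In LA it read 0.9, 0.68, 0.91 and 0.93. In RV it read 1.37, 1.06, 1.43 and 1.36, and in the 3 LV arrays 1.49, 1.35 and -1.65. LV replicate 4, outside the fit, read -0.46. The value of LV replicate 3 is one of the 339 below the lowest value of any other array, -1.07.

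That array sets the error of every *Scn4b* contrast, since all regions share 1 estimate of the spread. With it, SA exceeded RA by 1.75 ± 0.425 (SE, limma adjusted p = 0.0115), and no other contrast between regions passed. That call was lost with LV replicate 4 put back (limma adjusted p = 0.0879) and with arrays rescaled by their median and median absolute deviation (limma adjusted p = 0.0923). Without it, the same difference had an SE of 0.088 (limma adjusted p = 3.72e-10). SA then also exceeded LA by 0.8 ± 0.088 (SE, limma adjusted p = 5.74e-06, against 0.299 with the array) and the ventricles by 0.293 ± 0.082 (SE, limma adjusted p = 0.0117, against 0.114). The contrast with ventricles also passed when LV replicate 1 or LV replicate 2 was left out instead, at 1.08 (limma adjusted p = 0.026) and 1.04 (limma adjusted p = 0.0379), values in which LV replicate 3 carries more weight.

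The differences that do not involve LV were the same with and without LV replicate 3, and only their errors changed. LA exceeded RA by 0.945, with an SE of 0.088 without the array (limma adjusted p = 2.8e-06) and 0.425 with it (limma adjusted p = 0.427), and no LA array overlapped an RA array. Every SA array likewise lay above every other array of the series. Atria minus ventricles was -0.98 ± 0.069 without the array (SE, limma adjusted p = 3.25e-09) and -0.468 ± 0.313 with it (SE, limma adjusted p = 0.238).

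Without LV replicate 3 the order of *Scn4b* was SA at 1.66 ± 0.059 (SD, n = 4), LV at 1.42 ± 0.099 (SD, n = 2), RV at 1.31 ± 0.166 (SD, n = 4), LA at 0.855 ± 0.117 (SD, n = 4) and RA at -0.09 ± 0.189 (SD, n = 4). LV and RV were neighbours that did not differ at the threshold, at 0.115 with a 95% interval of -0.112 to 0.342. The left-right difference was larger in atria than in ventricles, by 0.83 ± 0.139 (SE, limma adjusted p = 0.00298), a test that did not pass with the array included (1.85 ± 0.626, SE, limma adjusted p = 0.139). Without LV replicate 1 in its place it passed at 2.4 (limma adjusted p = 0.0391). The gap of 0.945 between the atria stands beside gaps of 0.23 for *Fgf12* probe 1 and 0.26 for *Fgf13* probe 1, and the gaps of different genes were not compared by a test. Of the marker lists, neuron genes were higher in SA than in RA for 2 of 8 and than in LA and in ventricles for 7 of 8, adipocyte genes for 5 of 5 and smooth muscle genes for 4 of 5 in each of these contrasts. Of all lead probes 9.68% passed between SA and RA, 10.6% between SA and LA and 32.7% between SA and ventricles. The part of the marker genes in the *Scn4b* values of the node was not tested.

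**Figure D2:**
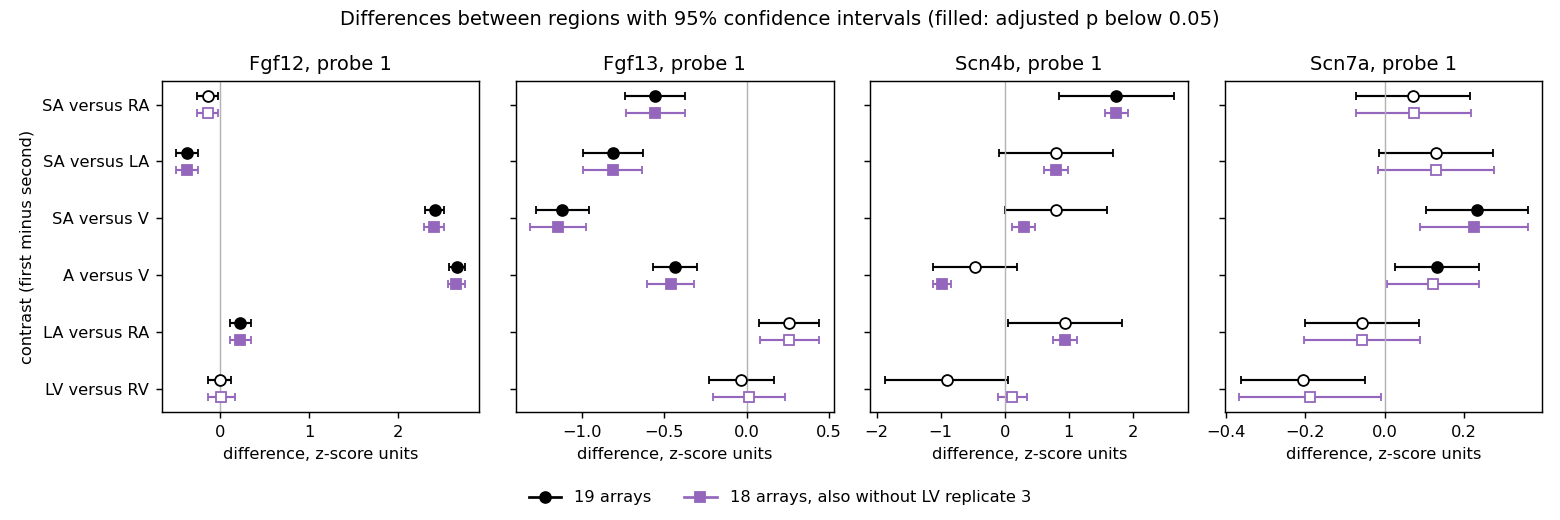
Difference between regions in z-score units (horizontal axis) for the lead probe of each member in 6 contrasts (vertical axis, first region minus second; V is the mean of the ventricles and A the mean of the atria), with 95% confidence intervals. Filled symbols have a limma adjusted p below 0.05, circles are the fit of 19 arrays and squares the fit of 18 arrays without LV replicate 3. Leaving that array out narrows the *Scn4b* intervals and shifts the *Scn4b* differences that involve LV, with LV minus RV changing sign, while *Fgf12* and *Fgf13* hardly move.

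*Scn7a*, the sodium-sensing family member, read near the array mean in every region, above the median probe of each fitted array. It read 0, -0.16, -0.04 and 0.17 in SA, -0.22, -0.01, -0.05 and -0.04 in RA, and 0.01, -0.24, -0.23 and -0.09 in LA. In RV it read -0.15, -0.04, -0.2 and -0.16, and in the 3 LV arrays -0.39, -0.26 and -0.38. The LV arrays were the lowest and did not overlap RV, but LV minus RV did not pass, at -0.206 ± 0.074 (SE, limma adjusted p = 0.193).

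SA exceeded the ventricles in *Scn7a* by 0.233 ± 0.061 (SE, limma adjusted p = 0.00676), with overlapping arrays. Atria exceeded ventricles by 0.132 ± 0.05 (SE, limma adjusted p = 0.046), also with overlap, and this call was lost without LV replicate 3, at 0.122 (limma adjusted p = 0.0939), and without any one of LA replicates 1 and 4, LV replicate 1, RA replicates 2, 3 and 4, RV replicates 1, 3 and 4 and SA replicates 1 and 3, with adjusted p values of 0.0513 to 0.0991. SA and RA did not differ at the threshold, at 0.072 with a 95% interval of -0.071 to 0.216. *Scn7a* is also known from glia of peripheral nerves, and of 5 Schwann cell genes 3 were higher in SA than in ventricles and none lower, where 32.7% of all lead probes passed. Their list mean per array was -0.308 to -0.228 in SA, -0.594 to -0.482 in the 3 LV arrays and -0.568 to -0.524 in RV. In the atria it was -0.42 to -0.3 (LA) and -0.352 to -0.292 (RA), which overlapped SA. The myelin gene *Mbp* read 0.262 ± 0.198 (SD, n = 4) in SA, below its means of 0.758 in LA and 0.72 in RA. The glial markers *S100b* and *Foxd3* were below 0 in every region. The part of the Schwann cell genes in the *Scn7a* values was not tested.

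Probes of 1 gene are counted separately here, so a gene can count more than once. Pearson correlations were 0.989 between the 2 *Fgf12* probes and 0.922 between *Fgf13* probes 1 and 2. Counts with 1 probe per gene are given with the processing alternatives. Counted over the contrasts, 4 of the 7 member probes passed between SA and RA, 1 higher and 3 lower in the node, where 9.17% of all probes passed. Between SA and LA 4 passed, all lower in the node, against 10.2% of all probes. Between SA and the ventricles 5 passed, 3 higher and 2 lower, against 30.6%, and between atria and ventricles 5 passed, 3 higher and 2 lower, against 39.3%. Both last contrasts called a large share of the array, so a call in them is not particular to a gene. The median differences over 16593 lead probes were -0.034 and -0.033, beside which the *Fgf12* probe 1 differences were 2.41 and 2.66.

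Left-right contrasts called few probes. Between LA and RA 1 of 7 member probes passed (*Fgf12* probe 1), against 1.9% of all probes. Between LV and RV none of the 7 passed in limma, where 1.41% of all probes did, and at an unadjusted p under 0.05 only *Scn7a* did. The interaction, LA minus RA less LV minus RV, passed in none of the 7, against 2.36%, with an unadjusted p under 0.05 for 5 of them. The share of all probes under that unadjusted cut was not counted. The counts at it, here and between LV and RV, therefore cannot be set against the whole array. A moderated F over the 5 regions passed in 6 of 7, all but the third *Fgf13* probe, against 36.5% of all probes, with limma adjusted p values from 4.58e-17 for *Fgf12* probe 1 to 0.0195 for *Scn4b*. The F of *Scn7a* was lost without LV replicate 1 (limma adjusted p = 0.0674) or LV replicate 3 (limma adjusted p = 0.0617). With LV replicate 4 put back the F was lost for *Scn4b* (limma adjusted p = 0.0791) and for *Fgf13* probes 1 and 2 (limma adjusted p = 0.35 and 0.0553), and with arrays rescaled by their median and median absolute deviation it was lost for *Scn4b* (limma adjusted p = 0.0906).

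The genes whose profiles over the 19 arrays were most like each member are given by Pearson correlation, as a description. For *Fgf12* they were *Gng2* (0.992), a G protein gamma subunit, *Rpp25* (0.989), a ribonuclease P subunit, and *Gm14685* (0.989). *Gng2* had region means of 1.62 in LA, 1.64 in RA, 1.37 in SA, -0.347 in LV and -0.368 in RV. For *Fgf13* they were *Prrx1* (0.966), a homeobox factor of mesenchymal cells, *Pgap2* (0.935) and *Nsfl1c* (0.927). *Prrx1* had its lowest region mean in SA, at 0.302, and its highest in LV, at 0.983. Arrays of a region share tissue and dissection, so these correlations carry the region means.

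For *Scn4b* the likeness depends on LV replicate 3. With it the leading genes were *Eif2s2* (0.912), *Apba2* (0.861) and *Acsm5* (0.852), which fell to 0.828, 0.744 and 0.731 without it. Over the 18 arrays without it they were *Abcb4* (0.955), *Ccl21a* (0.924) and *Tmc7* (0.917). *Tmc7* had region means of 1.13 in SA and 1.12 in RV, and -0.085 in RA. For *Scn7a* they were *Zdhhc13* (0.887), *Brat1* (0.882) and *Msh6* (0.863).

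The other genes of the sodium channel complex were taken from lists by function. Each was read on its brightest probe. Among pore subunits 4 of 9 listed genes were analysed. Of the 4, *Scn10a* was the one above 0, at 0.525 ± 0.202 (SD, n = 4) in LA, 0.355 ± 0.198 (SD, n = 4) in RA, 0.202 ± 0.22 (SD, n = 4) in RV, 0.125 ± 0.098 (SD, n = 4) in SA and -0.403 ± 0.065 (SD, n = 3) in LV.

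*Scn10a* encodes a pore subunit known from sensory neurons. It was higher in atria than in ventricles by 0.54 ± 0.081 (SE, limma adjusted p = 3.08e-05), with overlap of arrays, and lower in SA than in LA, at -0.4 ± 0.11 (SE, limma adjusted p = 0.0245). LV was below RV, at -0.606 ± 0.119 (SE, limma adjusted p = 0.0182) without overlap, and the left-right difference differed between atria and ventricles by 0.776 ± 0.162 (SE, limma adjusted p = 0.0124). Among the 4 pore subunits this made 1 higher and none lower in atria than in ventricles, where 41.8% of all lead probes passed. *Scn11a*, another neuronal pore subunit, was below 0 in all regions and higher in SA than in ventricles by 0.22 ± 0.065 (SE, limma adjusted p = 0.0143).

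Of the other beta subunits *Scn2b* and *Scn3b* were measured, and both were below 0 in every array. Both were higher in SA than in ventricles, *Scn2b* by 0.197 (limma adjusted p = 0.0134) and *Scn3b* by 0.15 (limma adjusted p = 0.00216), where 32.7% of lead probes passed. *Scn2b* was also higher in SA than in RA, at 0.247 ± 0.064 (SE, limma adjusted p = 0.0177), where 9.68% of lead probes passed. Among 8 measured neuron genes 2 were higher in SA than in RA and 7 higher in SA than in LA and in ventricles. Between SA and LA 10.6% of lead probes passed. The neuron list mean per array was -0.31 to 0.265 in SA, -0.435 to -0.16 in RA and -0.596 to -0.394 in LA and both ventricles. The part of the neuron genes in these beta subunit values was not tested.

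The remaining FGF homologous factors, *Fgf11* and *Fgf14*, were below 0 in every fitted array, and neither passed in any of the 7 contrasts. Their region means lay between -0.857 and -0.5. Of the 4 factors of the family, *Fgf12* and *Fgf13* were the ones with probes that passed, but *Fgf11* and *Fgf14* were read on their brightest probe alone. Those probes scored near or below the third *Fgf13* probe, so their lack of calls says little about the 2 genes.

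Partners of the channel, proteins that anchor, modify or neighbour it, moved in both directions. Of 14 measured, 4 were higher and 5 lower in atria than in ventricles, with a median difference of -0.02, where 41.8% of all lead probes passed, and 3 were higher and 6 lower in SA than in ventricles, with a median of -0.106, where 32.7% passed. *Mapk12*, a stress-activated kinase, was higher in atria by 0.621 ± 0.041 (SE, limma adjusted p = 6.78e-10) and in SA by 0.575 ± 0.049 (SE, limma adjusted p = 4.36e-08) than in ventricles. *Nedd4l*, a ubiquitin ligase that acts on sodium channels, was higher in atria by 0.557 ± 0.052 (SE, limma adjusted p = 7.39e-08) and in SA by 0.385. *Ank3*, which encodes ankyrin-G, was higher in atria by 0.103 (limma adjusted p = 0.0332), a call lost without LV replicate 3 (limma adjusted p = 0.0595), and in SA by 0.132.

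Lower in atria than in ventricles were *Pkp2*, a desmosomal plakophilin, at -0.465 ± 0.045 (SE, limma adjusted p = 1.4e-07), *Rangrf* at -0.254, *Camk2d*, a calmodulin kinase, at -0.252, *Ank2*, which encodes ankyrin-B, at -0.192, and *Cav3*, the muscle caveolin, at -0.177. Of these, *Ank2* was lower in SA than in ventricles by a larger difference, at -0.425 ± 0.052 (SE, limma adjusted p = 3.41e-06), and was also lower in SA than in LA, at -0.282. *Camk2d* (-0.358), *Pkp2* (-0.271) and *Rangrf* (-0.26) were lower in SA than in ventricles as well, as were *Dsg2* (-0.227) and *Ptpn3* (-0.133). *Ptpn3* was below 0 in every fitted array, with region means from -0.787 in SA to -0.642 in RV.

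*Dsg2*, a desmosomal cadherin, was the partner lower in SA than in both atria, at -0.625 ± 0.077 against RA (SE, limma adjusted p = 1.68e-05) and -0.482 ± 0.077 against LA (SE, limma adjusted p = 0.000302), and it was higher in atria than in ventricles by 0.327. Between SA and RA it was the only one of 14 partners that passed with 19 arrays, where 9.68% of all lead probes passed. Without LV replicate 3 *Pkp2* also passed, 0.19 higher in SA (limma adjusted p = 0.0474). Between SA and LA 1 partner was higher, *Pkp2* by 0.197, and 3 lower, *Ank2*, *Dsg2* and the phosphatase *Ptpn3* at -0.135, where 10.6% of lead probes passed. Of these, *Ptpn3* was below 0 in every fitted array.

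**Figure D3:**
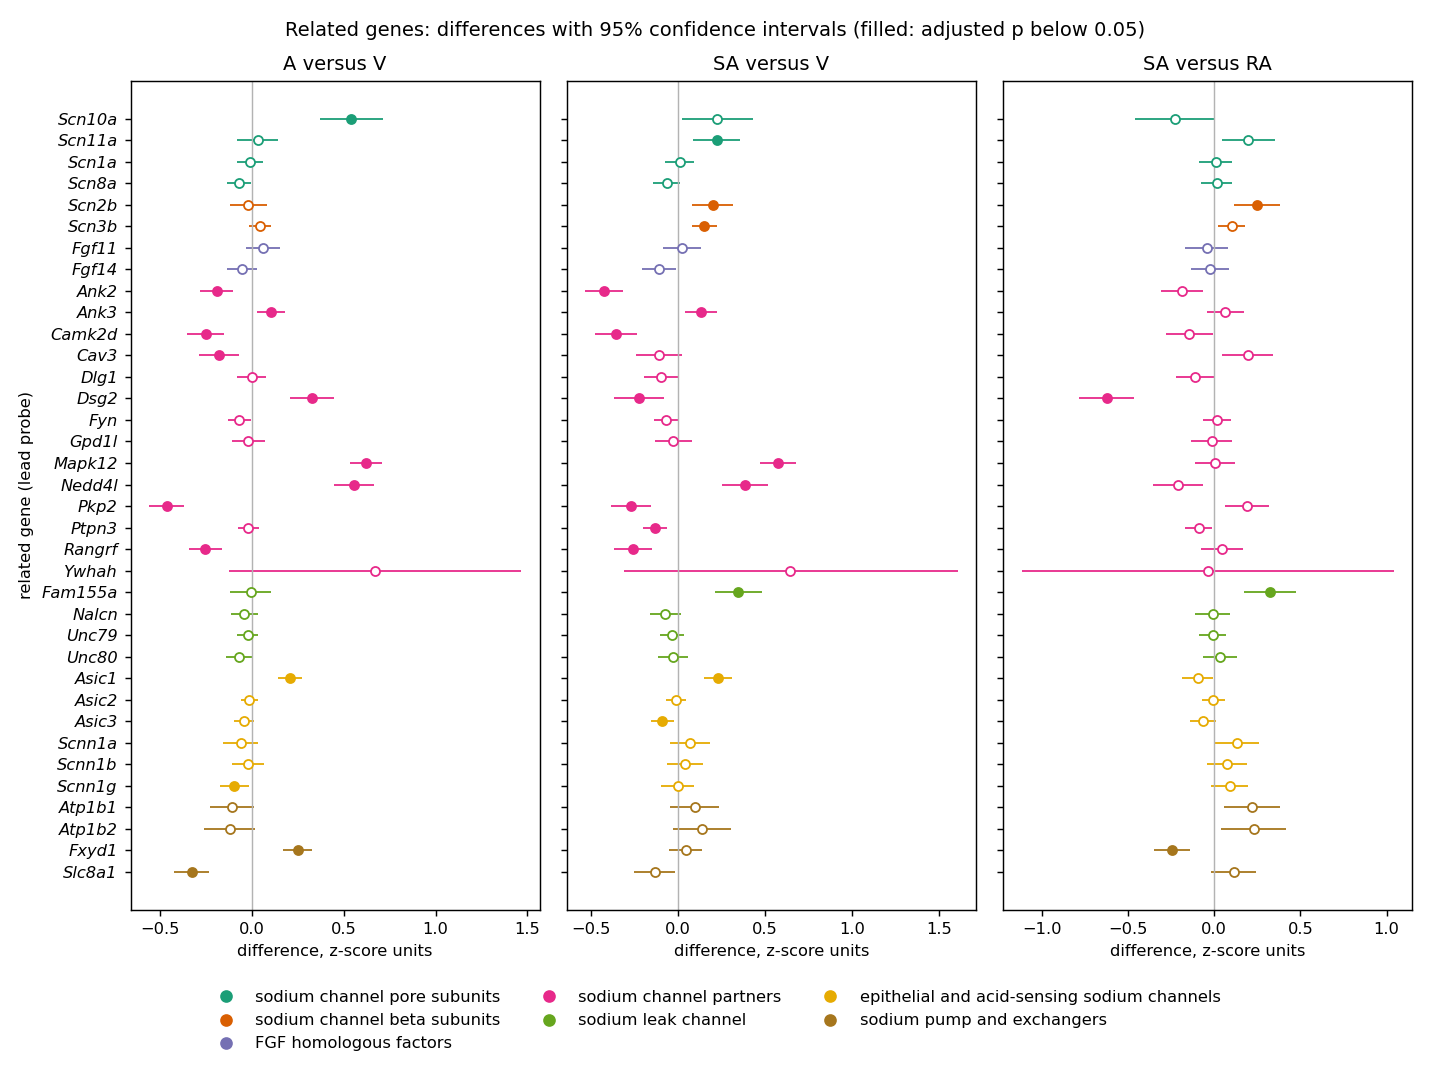
Difference in z-score units (horizontal axis) of each measured related gene, read on its lead probe (vertical axis, coloured by list), in 3 contrasts, atria versus ventricles, SA versus ventricles and SA versus RA, with 95% confidence intervals over 19 arrays. Filled points have a limma adjusted p below 0.05. Differences run in both directions in the partner list, and the wide *Ywhah* interval comes with an LV array at -1.59.

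Of the 4 genes of the sodium leak channel, which lets sodium in at rest, *Fam155a*, an auxiliary subunit, was the one that passed, in contrasts where 9.68% (SA and RA), 10.6% (SA and LA) and 32.7% (SA and ventricles) of all lead probes passed. It was below 0 in all region means but higher in SA, at -0.442 ± 0.206 (SD, n = 4), than in RA by 0.322 (limma adjusted p = 0.00651), LA by 0.38 (limma adjusted p = 0.0017) and ventricles by 0.345 (limma adjusted p = 0.000406). Of the 8 measured neuron genes, 2 were higher in SA than in RA and 7 higher in SA than in LA and in ventricles. *Dbh* (0.562 against 0.735) and *Snap25* (-0.818 against -0.765) had lower means in SA than in RA. The part of the neuron genes in the *Fam155a* values was not tested. Among 6 epithelial and acid-sensing channel genes, all with region means below 0, *Asic1* was higher than in ventricles in SA by 0.227 and in atria by 0.208. Lower than in ventricles were *Asic3* in SA at -0.092 (limma adjusted p = 0.0334, and 0.0563 without LV replicate 3) and *Scnn1g* in atria at -0.097. Between atria and ventricles 41.8% of all lead probes passed.

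Of sodium pumps and exchangers, which move sodium against or along its gradient across the cell membrane, 4 of 8 listed genes were measured. *Slc8a1*, the sodium-calcium exchanger, was lower in atria than in ventricles, at -0.329 ± 0.046 (SE, limma adjusted p = 1.36e-05), and higher in SA than in LA by 0.275 ± 0.063 (SE, limma adjusted p = 0.00687). *Fxyd1*, phospholemman, a regulator of the pump, was higher in atria than in ventricles by 0.248 ± 0.037 (SE, limma adjusted p = 2.84e-05) and lower in SA than in RA, at -0.245, and in LA, at -0.165. The pump subunits *Atp1b1* and *Atp1b2* did not pass in any contrast of SA or of atria with ventricles. Passing shares of all lead probes were 9.68% between SA and RA, 10.6% between SA and LA and 41.8% between atria and ventricles. A call between atria and ventricles is therefore not particular to these genes.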

How the data were processed

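RNA of 5 heart regions was hybridised to 20 Illumina bead arrays. The deposited values are scores, z-scores per array with mean 0 and SD 1, and the sources used here do not state how the authors made them. Per the labels, BeadStudio and GenomeStudio 2011.1 were used. The methods describe log2 signals with aligned medians, but these scores have aligned means, so they were used as they stand. One RV array has a title of the RA form, and its source, tissue and description give RV. Probes were named through the platform annotation (23978 with 1 gene, none with several, 1719 with none, 23962 matched by identifier).

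A mean per region was fitted to 19 arrays with limma 3.58.1 in R 4.3.3, without a filter, and 7 contrasts and a moderated F were tested two-sided with Benjamini-Hochberg adjustment over 25697 probes at 0.05. The fit was tested on simulated data. An earlier account gave LV replicate 4 as correlating negatively with the rest, and over all probes the correlation was near 0. The lead probe (probe 1) is the one with the highest mean. Related genes were named where that probe passed in a contrast of SA or of atria with ventricles, and the 3 genes most correlated with each member were named. Members and lists were chosen with earlier results of these data known. The number of arrays limits the precision. Alternatives were the arrays included, quantile normalization, median scaling, a filter, 1 probe per gene, an intensity trend and a replicate block.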

Additional observations from a re-analysis of the deposited data

Results flagged for a closer look

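Of 35 groups of 4 arrays (7 member probes in 5 regions, LV replicate 4 included), 3 held an array whose gap to the nearest other, divided by the range of the group, exceeded the 95% critical value of the Dixon test for 4 values. Chance flags about 1 in 20 groups. *Fgf13* probe 1 read -0.4 in LV replicate 4, against 2.13 to 2.3 in the other LV arrays (ratio 0.937). *Fgf13* probe 2 read -0.58 in the same array, against 0.8 to 0.89 (ratio 0.939). That array was not in the fit. *Scn4b* read 0.68 in LA replicate 2, against 0.9 to 0.93 in the other LA arrays (ratio 0.88), and this array stayed in the fit.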

How the results depend on the processing

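Over 8 alternatives of the arrays included, scale, filter, probes and model, 167 differences of member lead probes kept their direction and side of the threshold, 16 lost a call, 4 gained one and 5 changed sign. With all 20 arrays, 1 member probe passed between SA and RA, 2 between SA and LA, 2 between atria and ventricles, none (0) between LA and RA and 3 in the F. *Fgf13* probe 1 then passed in no contrast (limma adjusted p = 0.24 between SA and ventricles). Without LV replicates 3 and 4, 3 passed between LA and RA and 1 in the left-right interaction. With median scaling, 1 passed between SA and RA and 0 between LA and RA, *Scn4b* between SA and RA among those lost (limma adjusted p = 0.0923). With an intensity trend 0 passed between LA and RA. With 1 probe per gene, which leaves 4 member probes, 2 passed between SA and RA, 2 between SA and LA, 3 between SA and ventricles and 3 between atria and ventricles. Quantile normalization ended the *Scn7a* call between atria and ventricles, at 0.08 (limma adjusted p = 0.19). With the filter, 10706 probes and 6 of 7 member probes remained. The share of all probes that passed in each alternative is not given beside these counts or those with 1 array left out. They therefore do not show whether the members lost or gained calls more than other probes did.

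Leaving out 1 array at a time gave counts of 4 to 4 (SA and RA), 4 to 5 (SA and LA), 5 to 6 (SA and ventricles), 4 to 5 (atria and ventricles), 0 to 3 (LA and RA), 0 to 0 (LV and RV), 0 to 1 (interaction) and 5 to 6 (F). The highest count for LA and RA was without LV replicate 3, and that for the interaction without LV replicate 1 or 3. Sign changes occurred only between LV and RV, in differences that passed nowhere: without LV replicate 3, *Fgf13* 0.015 and *Scn4b* 0.115, with quantile normalization *Fgf12* -0.016, with median scaling *Fgf12* -0.07 and *Fgf13* 0.25 in units of that scale, and *Fgf12* without LV replicate 1 (-0.027), RV replicate 1 (-0.01) and RV replicate 3 (-0.013). Over the fits that left out 1 array, LV minus RV ran from -0.027 to 0.02 for *Fgf12*, from -0.07 to 0.015 for *Fgf13* and from -1.455 to 0.115 for *Scn4b*. The cause was not tested.

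Array titles share numbers between LA and RA and between LV and RV. Deviations from region means were correlated between same-numbered arrays over 8945 probes. The correlations were -0.299, 0.211, 0.381 and 0.409 for LA and RA and 0.204, 0.171 and 0.024 for LV and RV, the last with LV replicate 3. Differently numbered arrays were not compared, so these values cannot decide whether the numbers pair samples. The main fit has no pairing. An alternative fit took the replicate number as a block, which also joins atrial, ventricular and SA arrays whose titles differ in number or letter. It left each count of calls within 1.5 times and ended the *Scn7a* call between atria and ventricles, at 0.122 (limma adjusted p = 0.0749).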
